A study of Danio rerio with 3 samples.

Results

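Fibroblast growth factor (FGF) genes were taken from an array comparison of zebrafish embryos by gene symbol. The rule took the symbols of FGF ligands, FGF receptors (fgfr), FGF binding proteins (fgfbp), the adaptors frs2 and frs3, the FLRT membrane proteins, the feedback inhibitors spry, spred, dusp6 and il17rd, and the transcription factors etv4 and etv5. It found 56 of 15571 measured genes, read by 79 of 43603 probes, and 18 of the 56 had more than 1 probe. Wild type embryos of strain Ab were kept in 40 µM LY-364947, a small-molecule inhibitor of the TGF-β receptor 1 kinase, from 8 to 48 hours post fertilisation, and were set against untreated embryos of the same age. RNA was taken from whole embryos, 10 to 15 per replicate. Each of 3 treated replicates was hybridised on its own 2-colour array against 1 pool of 3 untreated replicates, with the dyes exchanged for replicate 2. Values are log ratios of the 2 channels, read as log2 units.

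The direction of the ratios is not settled. As deposited, replicate 2 ran against replicates 1 (r = -0.742 over all probes) and 3 (r = -0.647), while replicates 1 and 3 ran together (r = 0.521), so the sign of replicate 2 was turned. Read by the sample titles, positive ratios mean more RNA with LY-364947. If they are Cy5 over Cy3, the other common order, they mean more in the untreated pool. Genes are therefore placed on a positive or a negative side, in the sign of replicates 1 and 3. No brightness came with the ratios, so levels cannot be compared between genes, markers of the labelled tissue could not be checked for presence, and signal over background is unknown. The spread of untreated embryos was not measured, because every ratio holds the same pool.

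FGFs signal mostly between neighbouring cells. A ligand held by heparan sulfate joins a receptor tyrosine kinase, the adaptor Frs2 links the receptor to Ras and the MAP kinase ERK, and ERK activates transcription factors of the ETS family such as Etv4 and Etv5. The same signal switches on its own inhibitors, among them Sprouty, Spred, Dusp6 and Il17rd (Sef). Transcripts of several of these genes, and of etv4 and etv5, are therefore widely used as readouts of FGF activity in the zebrafish embryo. In this embryo the pathway is known for patterning the midbrain-hindbrain boundary, the ear, the pharyngeal arches and the fin buds.

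By limma, 12 of the 56 FGF genes (21.4%) passed at an adjusted p of 0.05, adjusted over all genes. Over all 15571 genes 3013 passed, or 19.4%, so the share of FGF genes was near the background. On the positive side 9 FGF genes passed (16.1%), against 9.92% of all genes, and on the negative side 3 passed (5.36%), against 9.43%. The median ratio of the FGF genes was 0.035, and of all genes -0.0013. A typical FGF gene differed little: the median size was 0.078, against 0.089 over all genes, and 33 of the 56 had a size under 0.1. The 3 arrays had 1 sign for 26 FGF genes (46.4%), against 52.3% of all genes. The count of FGF genes that passed was 7 without replicate 1, 3 without replicate 2 and 12 without replicate 3. Over all 15571 genes 2132, 1041 and 3693 passed in the same fits, against 3013 with all 3 arrays. Losses without replicate 1 or 2 were thus not particular to FGF genes, and this holds for the single calls below. Of the FGF genes that passed in these fits, 6, 3 and 10 were among the 12 that passed with all 3 arrays. Those fits had 1 residual degree of freedom in place of 2. A dye coefficient added to the fit, which the swapped array allows, left 5 FGF genes: fgfbp2b, etv4, frs2b, fgf13b and fgfr3. Over all 15571 genes it left 1465. Only replicate 2 was swapped, so a dye effect cannot be told apart from a difference of that replicate.

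**Figure D1:**
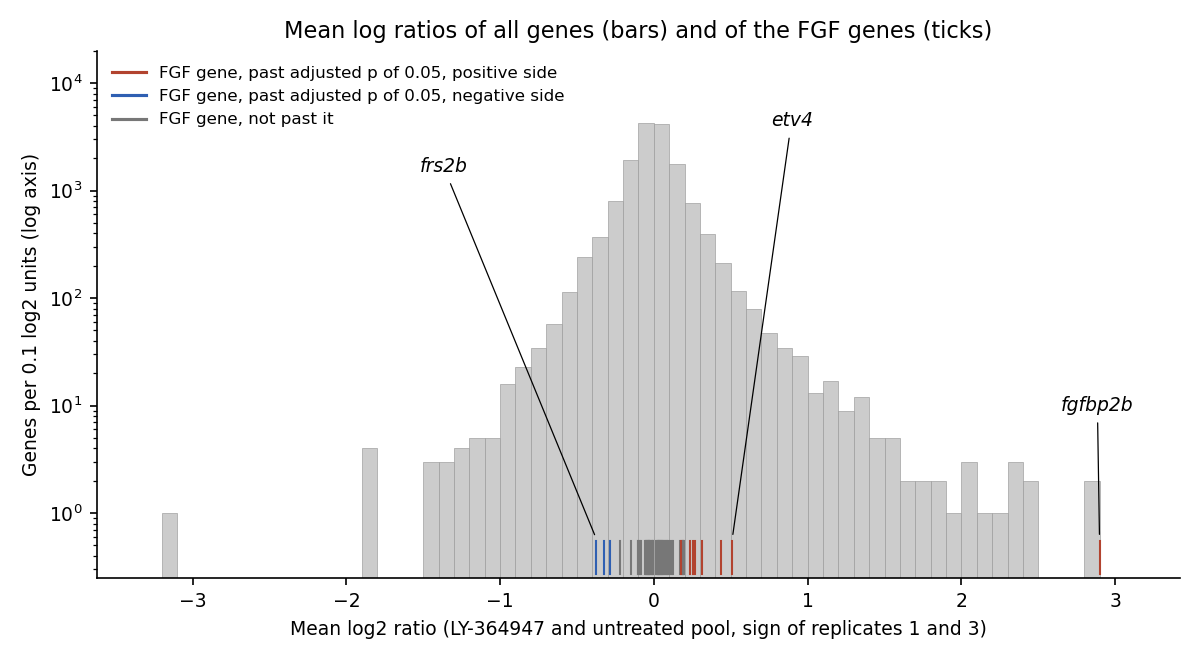
Bars give the number of genes (log axis) per 0.1 log2 units of mean log2 ratio over 3 arrays, for all 15571 genes. Ticks at the foot mark the 56 FGF genes, red or blue where they passed an adjusted p of 0.05; fgfbp2b lies at 2.90, and the next in size, etv4, at 0.51.

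The gene that stood apart was fgfbp2b, which encodes a secreted protein of the FGF binding protein family. Proteins of this family were named for binding FGFs in the matrix, and the family's founder, Fgfbp1, carries FGFs from heparan sulfate to their receptors. The ratios of fgfbp2b were 2.74, 3.00 and 2.96 on replicates 1, 2 and 3, a mean of 2.90 ± 0.14 (SD, n = 3), which is a 7.45-fold difference (limma adjusted p = 6.74e-06). Its 3 arrays lay far on the positive side and close together. It ranked first of all genes on that side and had the second largest size of all genes. Only 1 probe reads it, so no second probe checks the value, and whether that probe also binds related transcripts was not tested. In whole-embryo RNA, a change in the number of cells that express a gene and a change in RNA per cell cannot be told apart.

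The other binding proteins measured, fgfbp2a and fgfbp3, did not follow it, and fgfbp1a and fgfbp1b were not measured. Its namesake fgfbp2a had 0.19, 0.24 and -0.05, a mean of 0.13 ± 0.16 (adjusted p = 0.271). Replicate 3 lay on the other side of 0, and without it the mean of 0.21 passed (adjusted p = 0.0296). The third gene, fgfbp3, had -0.23, 0.00 and 0.11, and its arrays lay on both sides of 0. The difference of fgfbp2a minus fgfbp2b was -2.56, -2.75 and -3.01 on the 3 arrays, with a mean of -2.77 and a 95% interval from -3.00 to -2.54 (limma adjusted p = 2.97e-06 over all pairs of the kind described below).

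Paracrine ligands, the secreted FGFs that act on nearby cells, numbered 20. Of these, 2 passed (10%, against 19.4% of all genes), both on the positive side and both small. They belong to the FGF4 subfamily. The ligand fgf4, known from early limb and tail bud outgrowth in vertebrates, had 0.41, 0.20 and 0.16, a mean of 0.25 ± 0.13 (adjusted p = 0.0351). The ligand fgf5, a regulator of hair growth in mammals, had 0.18, 0.17 and 0.18 (adjusted p = 0.0498, just inside the threshold). Both genes were positive on the 3 arrays, fgf4 mainly on replicate 1. Each has 1 probe, which did not pass among all probes (limma adjusted p = 0.0647 for fgf4 and 0.0965 for fgf5). The ratios are the same in both fits, which differ in what they are fitted and adjusted over, so this is no separate measurement. The call of fgf4 was lost without replicate 1 (0.18, adjusted p = 0.138) and without replicate 2 (0.28, adjusted p = 0.149). That of fgf5 was lost without any 1 replicate, at means of 0.17 to 0.18, although its arrays differed by only 0.01 (SD). Both calls were also lost with a dye coefficient, fgf4 at 0.24 (adjusted p = 0.136) and fgf5 at 0.17 (adjusted p = 0.189). The remaining members of the subfamily were fgf6a, a muscle FGF, at 0.09 ± 0.04 and fgf6b at 0.04 ± 0.22, and neither passed.

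The FGF8 subfamily holds the ligands of the midbrain-hindbrain boundary, the heart field and the fin bud, and its 5 genes lay close to 0. The ligand fgf8a, mutated in the zebrafish line acerebellar, had -0.10, -0.06 and 0.04, a mean of -0.04 with a 95% interval from -0.17 to 0.09. Its 3 probes averaged between -0.10 and -0.0025. The mean was 0.03 for fgf8b, 0.05 for fgf17, 0.06 for fgf18b and 0.02 for fgf24, a ligand of the pectoral fin bud. None of the 5 passed by limma, and 0 had an unadjusted p under 0.05. The 95% intervals ran from -0.10 to 0.14 for fgf24 and from -0.07 to 0.17 for fgf17. They leave out the spread of untreated embryos, and whether these ligands gave signal above background is unknown.

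In the FGF7 group, fgf10a spread most between arrays. The fin bud and epithelial ligand fgf10a had 0.49 on replicate 1, against 0.04 and 0.07 on replicates 2 and 3, so its mean of 0.20 ± 0.25 rests on 1 array (adjusted p = 0.198). Its namesake fgf10b had a mean of 0.06, fgf3, an ear and hindbrain ligand, of 0.04, fgf22 of -0.03 and fgf7 of -0.09. In this group 0 of 5 genes passed by limma, and 0 had an unadjusted p under 0.05.

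The ligands fgf1a, fgf1b and fgf2 lack a classical signal peptide. On the 3 arrays fgf1a had 0.09, 0.21 and 0.25, a mean of 0.18 ± 0.08 (adjusted p = 0.0635), with both probes on the positive side at 0.14 and 0.23. Its arrays were all positive but it did not pass. The means of fgf1b and fgf2 were 0.10 ± 0.10 and -0.10 ± 0.09. In the FGF9 subfamily, fgf16, fgf20a and fgf20b had means between -0.05 and -0.01, and their arrays lay on both sides of 0 for each gene.

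**Figure D2:**
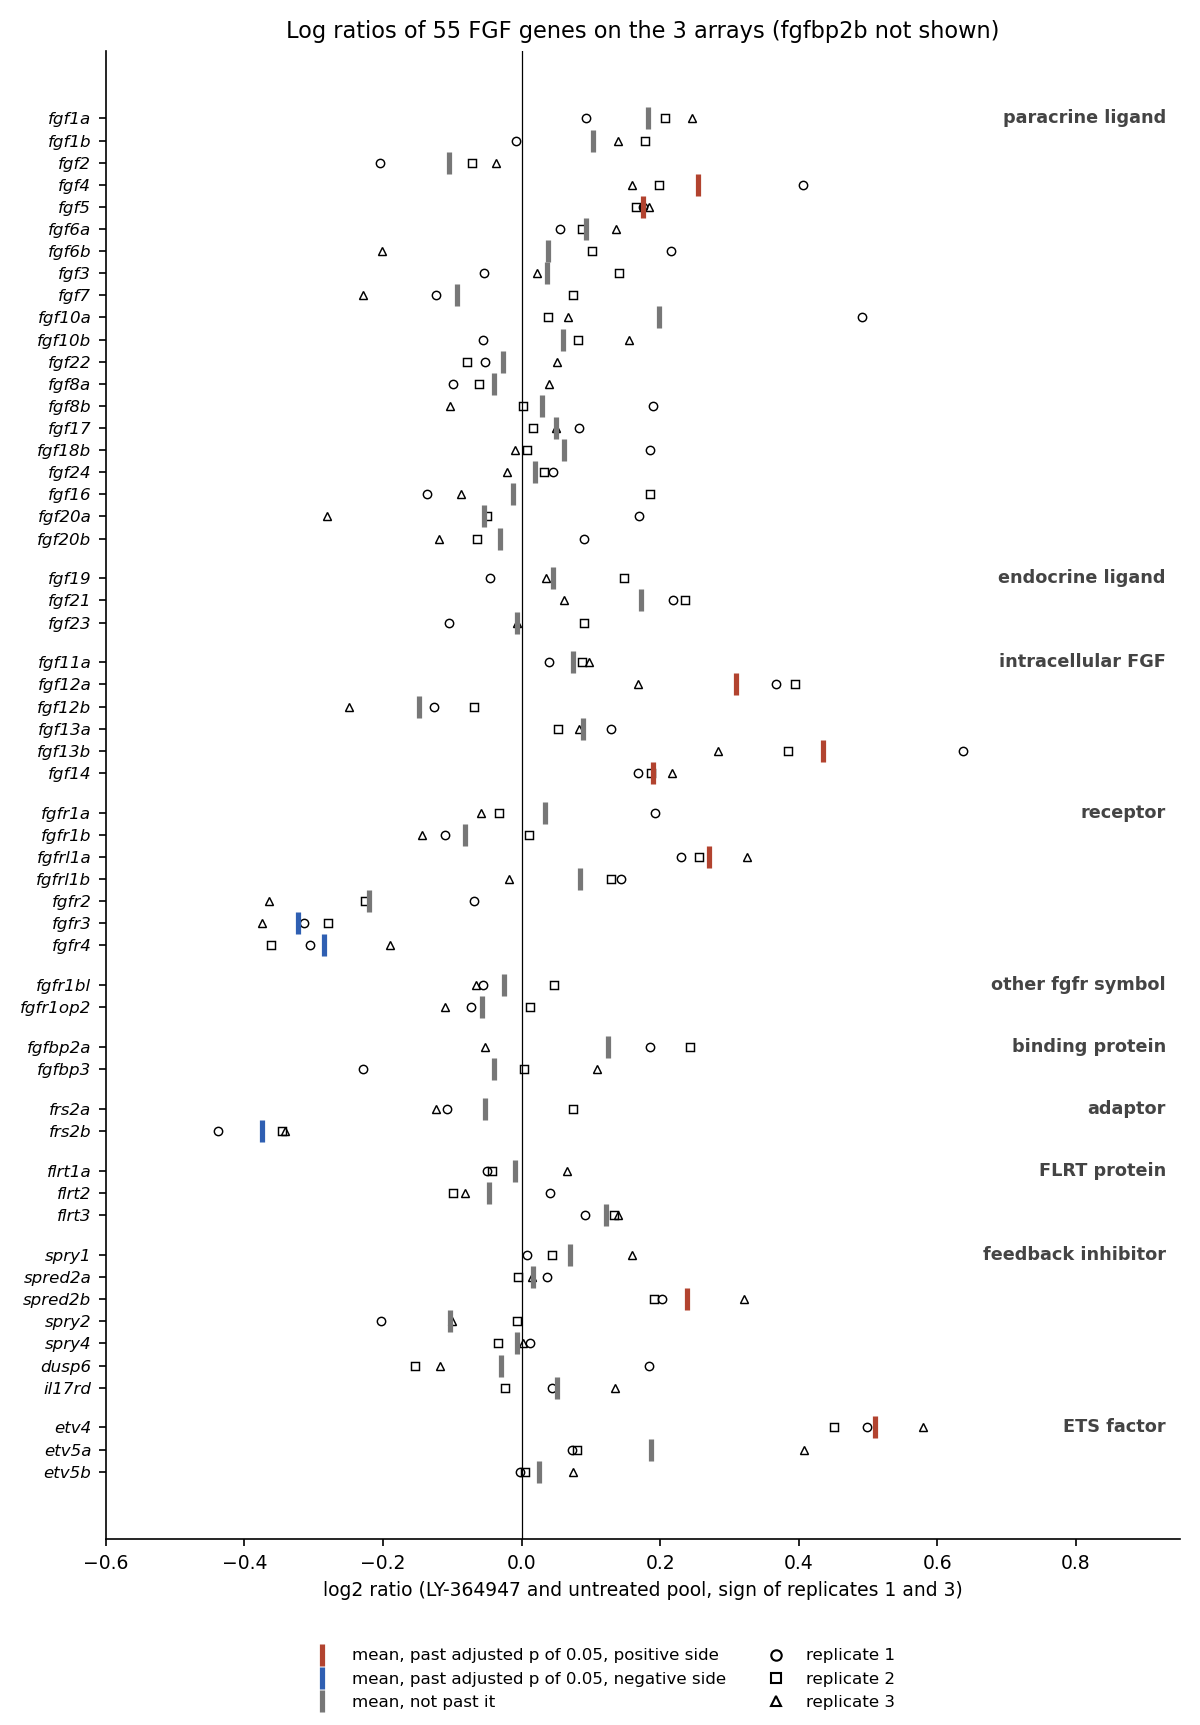
Log2 ratios of 55 FGF genes, grouped by role, with an open symbol for each of the 3 arrays and a bar for their mean, red or blue where the gene passed an adjusted p of 0.05; fgfbp2b is not shown. Most paracrine ligands and feedback inhibitors straddle 0. The 3 arrays of etv4, fgf13b, fgfr3, fgfr4 and frs2b lie on 1 side. They do so for 26 of the 56 FGF genes (46.4%, fgfbp2b counted), against 52.3% of all genes.

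Endocrine FGFs travel in the blood and need Klotho co-receptors. Of fgf19, fgf21 and fgf23, 0 passed by limma and 1 had an unadjusted p under 0.05. That gene was fgf21, a starvation hormone in mammals, with 0.22, 0.24 and 0.06, a mean of 0.17 ± 0.10 (adjusted p = 0.0857). Without replicate 3, its lowest value, it passed at 0.23 (adjusted p = 0.0213). The mean of fgf19 was 0.05 ± 0.10 and that of fgf23 -0.0072 ± 0.097.

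Intracellular FGFs (fgf11 to fgf14) are not secreted. They bind the cytoplasmic tails of voltage-gated sodium channels in neurons and heart muscle. Of 6 measured, 3 passed, all on the positive side, where 9.92% of all genes passed. For each of the 6 the 3 arrays had 1 sign, as they did for 52.3% of all genes. The largest was fgf13b, with 0.64, 0.38 and 0.28, a mean of 0.43 ± 0.18, or 1.35-fold (adjusted p = 0.00883). Replicate 1 was the highest, and both of its probes passed, at 0.53 and 0.33. The gene fgf12a had 0.37, 0.39 and 0.17, a mean of 0.31 ± 0.12 (adjusted p = 0.0156), lowest on replicate 3. The gene fgf14 had 0.17, 0.19 and 0.22, a mean of 0.19 ± 0.02 (adjusted p = 0.0393). Its single probe, which has the same ratios as the gene, did not pass when fitted and adjusted over all probes (limma adjusted p = 0.0777). Those that did not pass were fgf13a at 0.09 ± 0.04, fgf11a at 0.07 ± 0.03 and fgf12b, the only one on the negative side, at -0.15 ± 0.09 (adjusted p = 0.124).

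Without replicate 2 the calls of fgf13b (0.46, adjusted p = 0.0655), fgf12a (0.27, adjusted p = 0.148) and fgf14 (0.19, adjusted p = 0.227) were lost. Without replicate 1 those of fgf12a (0.28, adjusted p = 0.0579) and fgf14 (0.20, adjusted p = 0.0988) were lost, and without replicate 3 that of fgf14 (0.18, adjusted p = 0.0617). With a dye coefficient fgf12a (0.33, adjusted p = 0.0520) and fgf14 (0.19, adjusted p = 0.156) did not pass, and fgf13b did (0.42, adjusted p = 0.0465). On the same arrays 17 of 28 neuronal markers passed (60.7%, against 19.4% of all genes), all of them positive. The 28 had a median of 0.32, means per array of 0.33, 0.35 and 0.37, and single genes from -0.22 to 0.87. Of 11 measured sodium channel subunit genes, alpha and beta, 1 passed (9.09%), the beta subunit gene scn4ba at 0.26. The median of the 11 was 0.08. Both lists were drawn up after values of the FGF genes were seen. The part of the neuronal markers in the ratios of fgf12a, fgf13b and fgf14 was not tested.

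Receptor genes lay on both sides: of 7 measured, 2 passed as negative and 1 as positive (42.9% in all, against 19.4% of all genes). The receptor fgfr3, best known for restraining bone growth and expressed in neural progenitors and glia, had -0.31, -0.28 and -0.37, a mean of -0.32 ± 0.05, or 1.25-fold (adjusted p = 0.00652). The receptor fgfr4 had -0.31, -0.36 and -0.19, a mean of -0.29 ± 0.09 (adjusted p = 0.0143). Both lay on the negative side on the 3 arrays. The receptor fgfr2 lay on the same side with -0.07, -0.23 and -0.36, a mean of -0.22 ± 0.15, but did not pass (adjusted p = 0.0661). Without replicate 1, its smallest value, fgfr2 passed at -0.30 (adjusted p = 0.0363).

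In contrast, fgfrl1a, a receptor-like protein that binds FGFs and has no kinase domain, lay on the positive side with 0.23, 0.26 and 0.33, a mean of 0.27 ± 0.05 (adjusted p = 0.0126). Its namesake fgfrl1b had 0.14, 0.13 and -0.02 (adjusted p = 0.363). The paired genes fgfr1a and fgfr1b, whose mammalian counterpart is the main receptor of early mesoderm, had means of 0.03 ± 0.14 and -0.08 ± 0.08, and neither passed. Without replicate 2 the calls of fgfr3 (-0.34, adjusted p = 0.0616), fgfr4 (-0.25, adjusted p = 0.147) and fgfrl1a (0.28, adjusted p = 0.108) were lost, and without replicate 1 that of fgfr4 (-0.28, adjusted p = 0.0513). With a dye coefficient fgfr4 (-0.30, adjusted p = 0.0520) and fgfrl1a (0.27, adjusted p = 0.0709) did not pass, and fgfr3 did (-0.31, adjusted p = 0.0451).

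Single probes bear unequally on these calls. Both fgfr3 probes passed among all probes, at -0.37 ± 0.02 and -0.27 ± 0.09. Of the 3 fgfr4 probes, those at -0.44 and -0.32 passed and that at -0.11 did not (adjusted p = 0.376). Of the 2 fgfrl1a probes, 1 passed at 0.40 (adjusted p = 0.0103) and 1 did not at 0.14 (adjusted p = 0.253). Neither fgfrl1b probe passed, at 0.19 (limma adjusted p = 0.0908) and -0.02 (limma adjusted p = 0.943). On the second of these replicate 3 stood at -0.26. The fgfr2 probes averaged -0.33 ± 0.30 and -0.11 ± 0.06, and on the first of these replicate 1 stood at 0.0013 and replicate 3 at -0.58. Over all FGF genes 13 of 79 probes passed, against 10.4% of probes on the whole array. On the positive side 7 of the 79 passed, where 5.46% of all probes did, and on the negative side 6 of the 79, where 4.91% did. The background is not like for like: 19886 of its 43603 probes have no gene symbol, while each FGF probe has 1. The share over probes with a symbol was not computed.

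**Figure D3:**
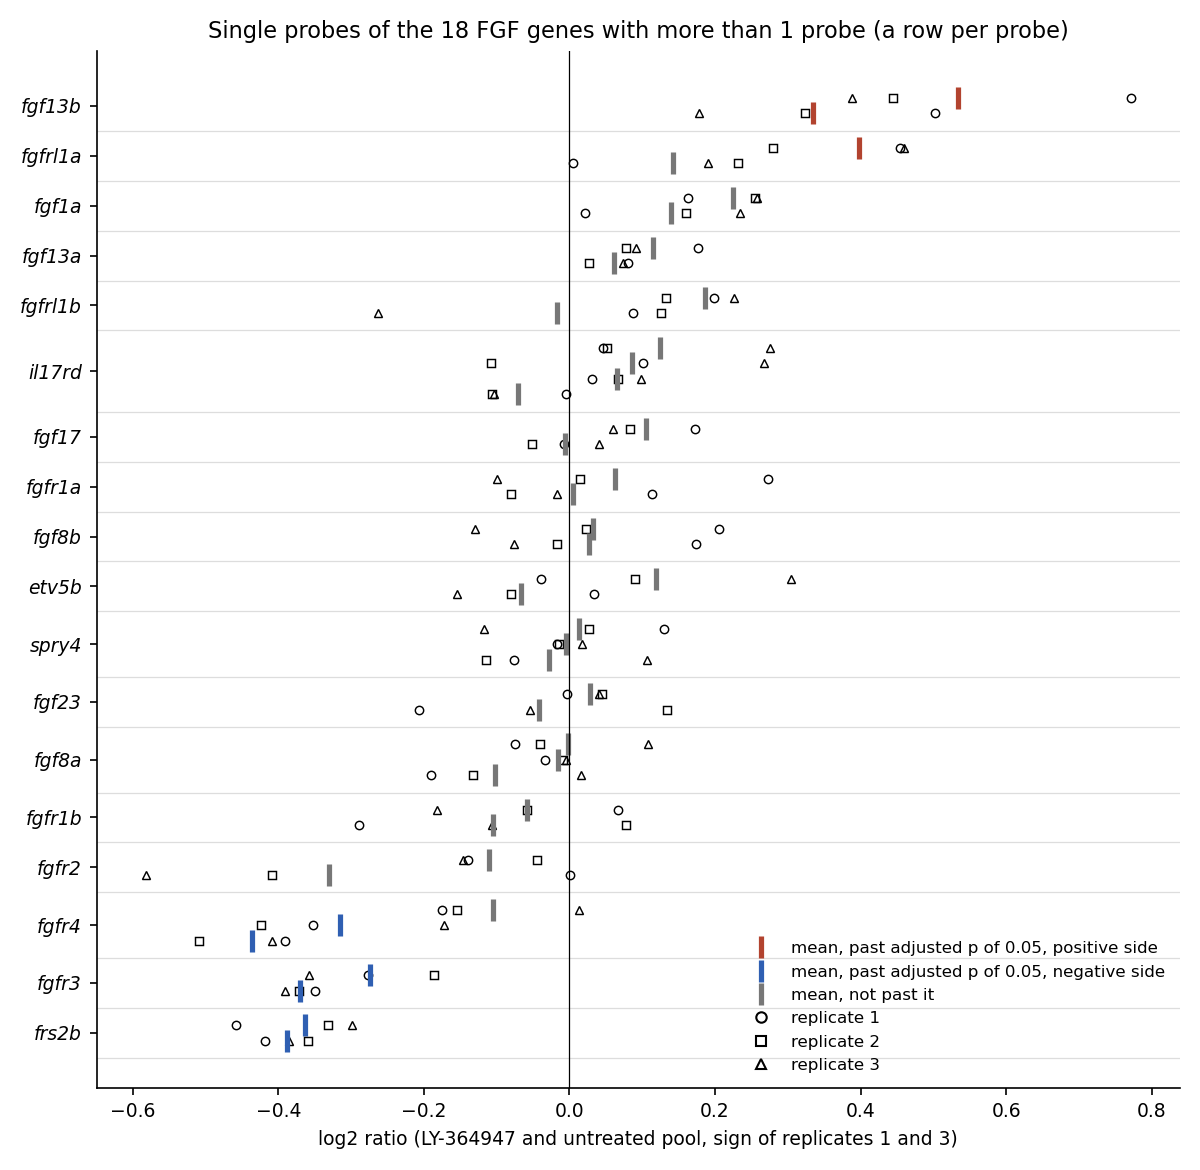
Log2 ratios of single probes for the 18 FGF genes read by more than 1 probe, a row for each probe, with open symbols for the 3 arrays and a bar for their mean. Both probes of frs2b, fgfr3 and fgf13b passed, while fgfr4 and fgfrl1a hold a probe that did not.

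Markers of dividing cells and of neural progenitors lay on the same side as fgfr3 and fgfr4. Of 33 cell cycle genes, 30 passed (90.9%, against 19.4% of all genes), all of them negative. The 33 had a median of -0.41, means per array of -0.48, -0.40 and -0.33, and single genes from -0.80 to 0.02. Of 22 neural progenitor genes, 17 passed (77.3%), 15 of them negative. The 22 had a median of -0.34, means per array of -0.42, -0.44 and -0.45, and single genes from -1.48 to 0.84. Both lists were chosen with earlier results of these data known. The part of dividing cells and neural progenitors in the receptor ratios was not tested.

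Among proteins at the receptor, the adaptor frs2b had -0.44, -0.35 and -0.34, a mean of -0.38 ± 0.05, or 1.30-fold (adjusted p = 0.00384). It was the lowest of the FGF genes, its arrays lay together, and both of its probes passed, at -0.39 and -0.36. Its namesake frs2a had -0.11, 0.07 and -0.12 and did not pass (adjusted p = 0.608). FLRT proteins are membrane proteins that bind FGF receptors and guide cell adhesion. Their genes flrt1a, flrt2 and flrt3 had means of -0.01, -0.05 and 0.12, and 0 of 3 passed by limma, with 1 at an unadjusted p under 0.05. The symbols fgfr1op2 and fgfr1bl matched the rule by name. The first encodes no FGF receptor (its name comes from a fusion partner of FGFR1) and had -0.06 ± 0.06, and the second had -0.02 ± 0.06. Neither passed, and neither was counted among the 7 receptors. For fgfr1bl this rests on its symbol, and whether it encodes a receptor was not checked.

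The feedback inhibitors, several of them usual transcript readouts of FGF signalling, mostly lay near 0. Of 7 measured, 1 passed (14.3%, against 19.4% of all genes). The inhibitor dusp6, the phosphatase that turns ERK off, had 0.18 on replicate 1, against -0.15 and -0.12 on replicates 2 and 3, a mean of -0.03 with a 95% interval from -0.21 to 0.15. The inhibitor spry4 had 0.012, -0.034 and 0.0018 over 3 probes, with an interval from -0.12 to 0.11. The membrane inhibitor il17rd had 0.04, -0.02 and 0.13 over 4 probes, with an interval from -0.08 to 0.18. For these 3 genes the arrays lay on both sides of 0. As brightness is unknown, limma's 95% intervals do not show whether the signals were above background.

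The Sprouty genes spry1 and spry2 had means of 0.07 ± 0.08 and -0.10 ± 0.10 and did not pass. The inhibitor that passed was spred2b, which blocks the Ras to Raf step, with 0.20, 0.19 and 0.32, a mean of 0.24 ± 0.07 (adjusted p = 0.0237). Its namesake spred2a had 0.04, -0.0047 and 0.02. The call of spred2b was lost without replicate 1 (0.26, adjusted p = 0.0570), without replicate 2 (0.26, adjusted p = 0.130) and with a dye coefficient (0.23, adjusted p = 0.113).

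Of the ETS factors, etv4 stood on the positive side. This gene (also known as pea3) is a standard FGF target in the zebrafish embryo. It had 0.50, 0.45 and 0.58, a mean of 0.51 ± 0.06, or 1.42-fold, with a 95% interval from 0.38 to 0.64 (adjusted p = 0.00135). After fgfbp2b it had the largest size of the FGF genes, and it passed without any 1 replicate, at means of 0.48 to 0.54. Like fgfbp2b, etv4 has only 1 probe, so no second probe checks its value. The related gene etv5a had 0.07, 0.08 and 0.41, a mean of 0.19 ± 0.19 that rests on replicate 3 (adjusted p = 0.149). The gene etv5b (also known as erm) had -0.0022, 0.0047 and 0.07, and its 2 probes averaged -0.07 and 0.12. The interval of etv4 does not overlap those of spry4, il17rd, dusp6 or etv5b, whose upper ends lie between 0.11 and 0.18. These gene-to-gene differences were not tested directly.

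Zebrafish often keep 2 copies of a gene that is single in mammals, named a and b, and 13 such pairs lay among the FGF genes. The difference of a minus b was fitted by limma for all 1824 pairs of measured genes whose symbols differ only in a final a or b, not all of which need be duplicates. This comparison was added after the single values were seen. Of the 13 FGF pairs 4 differed at an adjusted p of 0.05, against 417 of all 1824 pairs (22.9%). Besides fgfbp2, the sodium channel partners fgf12a and fgf12b differed by 0.49, 0.46 and 0.42 on the 3 arrays (mean 0.46, adjusted p = 0.00499), with fgf12a on the positive and fgf12b on the negative side. The difference of fgf13a minus fgf13b was -0.51, -0.33 and -0.20 (mean -0.35, adjusted p = 0.0263), and that of frs2a minus frs2b 0.33, 0.42 and 0.22 (mean 0.32, adjusted p = 0.0259).

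Although spred2b and fgfrl1a passed and their namesakes did not, neither pair differed in this fit. For spred2a minus spred2b the mean was -0.22, with a 95% interval from -0.40 to -0.04 (adjusted p = 0.0789). For fgfrl1a minus fgfrl1b it was 0.19, with an interval from -0.01 to 0.38 (adjusted p = 0.159). The ligand pair fgf8a and fgf8b differed by -0.07, with an interval from -0.30 to 0.16. Without replicate 2 only the fgfbp2 pair passed, with fgf12 at 0.46 (adjusted p = 0.0803), fgf13 at -0.35 (0.176) and frs2 at 0.27 (0.226). Without replicate 1 the fgf13 (-0.27, adjusted p = 0.131) and frs2 (0.32, adjusted p = 0.0573) calls were lost. The same 2 calls were lost with a dye coefficient, at -0.34 (adjusted p = 0.128) and 0.35 (adjusted p = 0.0946). The share of all pairs that passed in these settings was not computed, so the losses cannot be read as particular to FGF pairs.

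**Figure D4:**
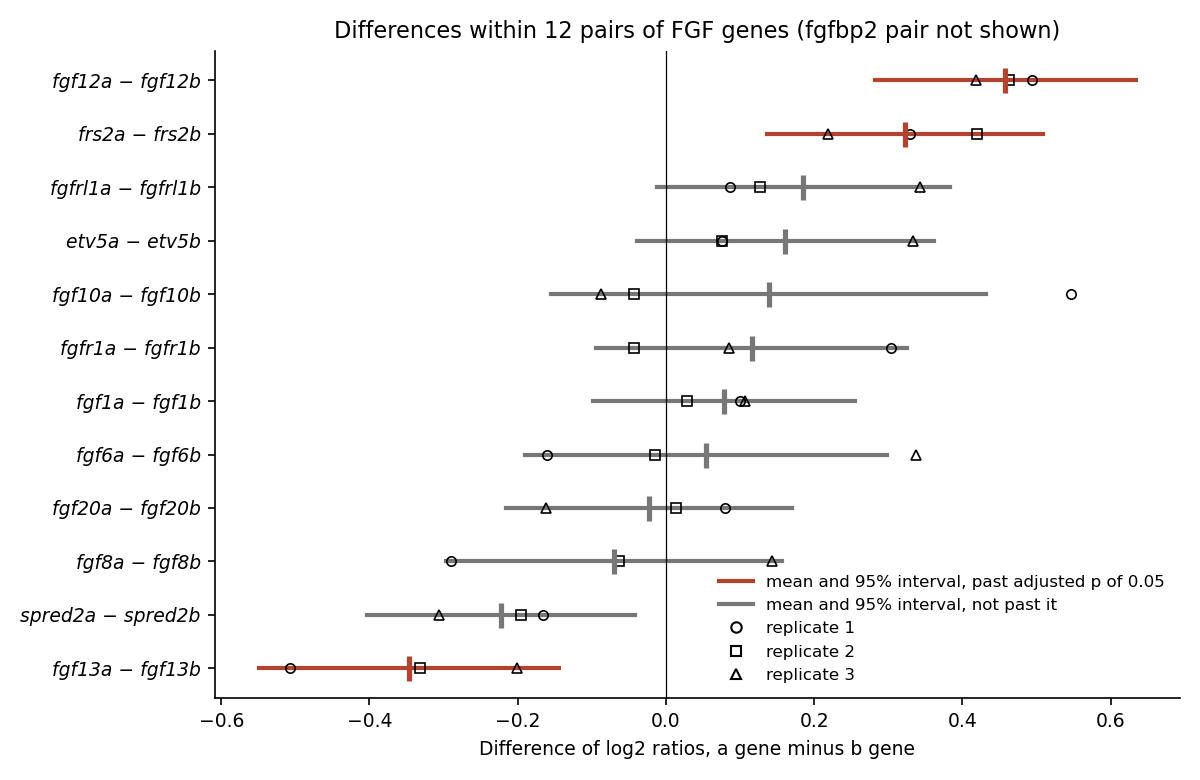
Difference of log2 ratios, a gene minus b gene, for 12 pairs of FGF genes, with open symbols for the 3 arrays, a bar for the mean and a line for limma's 95% interval, red where the pair passed an adjusted p of 0.05. The pairs fgf12, frs2 and fgf13 passed. For these, and for spred2, which did not pass, the 3 arrays and the interval lie on 1 side of 0. The fgfbp2 pair, at -2.77, is not shown.

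Genes around the FGF pathway were read from 3 lists without the FGF genes themselves. Of 88 measured, 19 passed (21.6%), near the 19.4% of all genes, and 17 of them were on the negative side, where 9.43% of all genes passed. In the list of receptor adaptors and the Ras-MAPK relay, 3 of 25 passed (12%), all on the negative side, with a median of -0.0011. They were sos1, the exchange factor that loads Ras, at -0.27 ± 0.04 (adjusted p = 0.0119), the kinase raf1b at -0.24 ± 0.05 (adjusted p = 0.0181) and the docking protein gab1 at -0.21 ± 0.09 (adjusted p = 0.0451). The kinase genes further down lay on both sides and did not pass. Of the MEK genes, map2k1 had -0.84, -0.30 and -0.03, a mean of -0.39 that is the largest size in the list and rests mainly on replicate 1 (adjusted p = 0.102), map2k2b averaged -0.06 and map2k2a 0.21, while the ERK gene mapk3 averaged 0.15. Each of the 3 calls was lost without replicate 2, at -0.25, -0.27 and -0.17. That of raf1b was also lost without replicate 1 (-0.24, adjusted p = 0.0632) and that of gab1 without replicate 3 (-0.19, adjusted p = 0.0605). With a dye coefficient the adjusted p was 0.0559 for sos1, 0.0952 for raf1b and 0.119 for gab1, of whose 3 probes 1 passed.

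In the list of heparan sulfate genes and co-receptors, 5 of 34 passed (14.7%, against 19.4% of all genes), 4 of them negative, with a median of 0.01. The sulfotransferase gene ndst3, which sulfates heparan chains, had -0.47, -0.40 and -0.44, a mean of -0.44 ± 0.04 (adjusted p = 0.00194), and kept its call without any 1 replicate. The others on that side were sulf2a (-0.24), which trims sulfates, the sulfotransferase hs6st2 (-0.23) and the syndecan sdc4 (-0.34), and their calls were lost without replicate 2 at -0.23, -0.23 and -0.23. Among single probes neither of sulf2a passed (adjusted p = 0.0718 and 0.0786), and 1 of 2 passed for each of hs6st2 and sdc4. Without replicate 1 the call of sdc4 was lost as well (-0.37, adjusted p = 0.0550). On the positive side was the glypican gpc6a at 0.22 ± 0.12 (adjusted p = 0.0453), a call lost without any 1 replicate, at means of 0.19 to 0.29. The dye coefficient ended the calls of sulf2a, hs6st2 and gpc6a (adjusted p = 0.0950, 0.118 and 0.151) and not that of sdc4. Of the co-receptor genes measured, kl (Klotho) had -0.03 and cnpy1, a zebrafish regulator of Fgfr1 at the midbrain-hindbrain boundary, 0.01.

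The list of other ERK feedback and early response genes had the highest share of the 3 lists. In it 11 of 29 passed (37.9%, against 19.4% of all genes), 10 of them negative, with a median of -0.05. The transcription factor fosab stood at -0.63 ± 0.08 (adjusted p = 0.000695), dusp1, a phosphatase of MAP kinases, at -0.57 ± 0.10 (adjusted p = 0.00123), mycn at -0.70 ± 0.18 (adjusted p = 0.00155) and myca at -0.43 ± 0.06 (adjusted p = 0.00249). These 4 kept their calls without any 1 replicate. The positive one was egr3 at 0.29 ± 0.15 (adjusted p = 0.0271), whose call was lost without replicate 1 (0.20), without replicate 2 (0.31) and with a dye coefficient (0.27). These genes answer many signals besides FGF. Of the other phosphatase genes, dusp2 passed at -0.30 (adjusted p = 0.0353), while dusp4 at 0.17, dusp5 at 0.0038, dusp14 at 0.17 and dusp7, of the same class as dusp6, at 0.05 did not. The early response gene egr1 stood at -0.02.

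Tissues in which FGFs act gave mixed values. Of 15 midbrain-hindbrain boundary genes, 5 passed (33.3%, against 19.4% of all genes), 4 of them positive. Their list had a median of 0.01 and a range from -0.40 to 0.54. Among 19 genes of the fin bud and fold, 8 were past the threshold (42.1%), 7 of them positive. The 19 had a median of -0.01 and a range from -0.73 to 1.65. Cartilage and lens lay on the positive side with fgfbp2b and etv4. So did the neuronal markers above, of which 17 of 28 passed, all positive (median 0.32). Over all genes 1545 passed on that side, so the side is not particular to these tissues. For cartilage 13 of 20 passed (65%), 12 of them positive (median 0.32, range from -0.39 to 1.98). For lens 13 of 22 passed (59.1%), all of them positive (median 0.55, range from -0.22 to 1.60). The tissue lists were chosen with earlier results of these data known. The part of cartilage, lens and neurons in the ratios of fgfbp2b and etv4 was not tested.

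**Figure D5:**
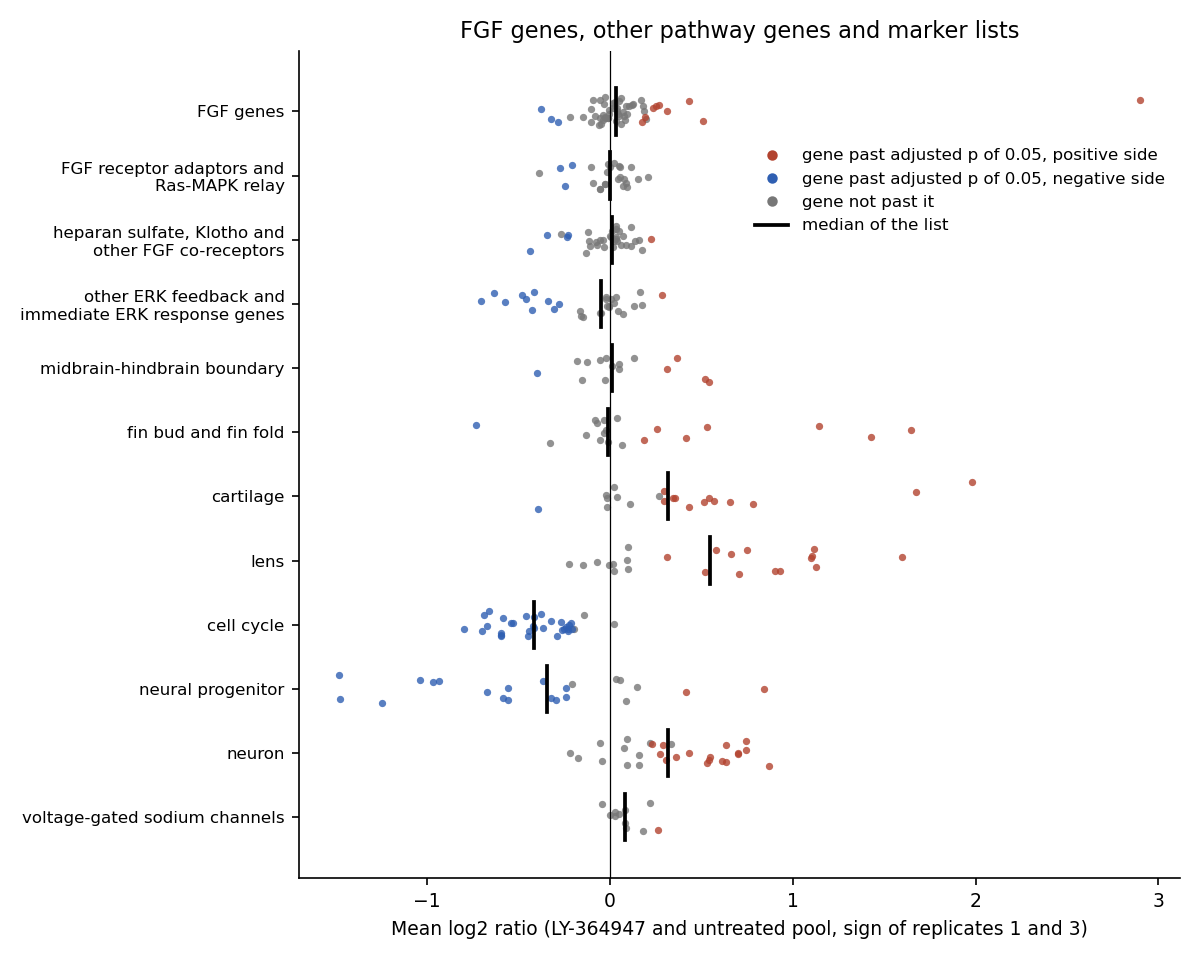
Mean log2 ratios of single genes (points) and the median of each list (black line) for the FGF genes, 3 lists of other pathway genes and 8 marker lists; red and blue points passed an adjusted p of 0.05. The FGF genes centre near 0 with fgfbp2b at 2.90 alone, while cell cycle and neural progenitor genes lie to the left and cartilage, lens and neuronal genes to the right.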

How the data were processed

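The labels' protocols give a linear T7 amplification, 3 µg of its product for dye labelling and 2 µg for hybridisation. Log ratios, 1 for each probe on each array, were deposited by the authors and are read here as log2. Nothing used here states their base, numerator, background correction or normalisation. The submitters' processing notes name Partek. If the base were 10, folds would be larger and the tests the same. Control probes (45) were left out, and 23717 probes carried 1 gene symbol. Probes of a gene (1 Entrez identifier) were averaged, and mean ratios were tested against 0 with limma 3.58.1 (lmFit, eBayes) under R 4.3.3. The fit had 2 residual degrees of freedom, and p-values were adjusted by Benjamini-Hochberg over all genes or all probes. Intervals are limma's 95% intervals. The script was tested on simulated data. Plots used matplotlib 3.10.9 in Python 3.11.15.

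The members and lists were chosen with earlier results of these data known. By rule, members past the threshold or with a mean size of at least 0.2, their a or b namesakes, and up to 4 genes per pathway list were named; the other genes were named after their values were seen. The alternatives were centred, scaled or quantile-normalised arrays, a dye coefficient, a robust prior, a minimum change, a stricter threshold, other ways to combine probes, replicate 2 unturned and each replicate left out. Differences within gene pairs were added after the data were seen. The labels do not say that replicates came from separate clutches, so p-values measure the spread between these samples, and the number of arrays limits the precision.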

Additional observations from a re-analysis of the deposited data

How the results depend on the processing

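No paired analysis was possible because the design has 1 group, set against 1 shared pool. Centring, scaling, quantile normalisation and the robust prior left the count of FGF genes that passed by limma at 12, the same 12 genes, and the median over all genes stayed within 0.1 of 0. With a dye term 5 passed (3 on the positive side), of 1465 over all genes, with 9 pathway genes, 3 probes of FGF genes and 2 pairs. Against a minimum change of 0.2 log2 units 2 passed (2 positive, 0 negative, with 2 negative at an unadjusted p under 0.05), of 781 over all genes, with 5 pathway genes and 2 probes. At an adjusted p of 0.01 5 passed (3 positive), of 1434, with 7 pathway genes and 5 probes. With replicate 2 not turned 0 passed on either side, of 0 over all genes, with 0 FGF genes and 34 of all genes at an unadjusted p under 0.05. Leaving out each replicate gave 3 to 12 FGF genes (2 to 9 positive, 1 to 3 negative), 1041 to 3693 of all genes, 6 to 23 pathway genes, 1 to 14 probes and 1 to 4 pairs, the lowest without replicate 2 each time; these fits and the dye term had 1 residual degree of freedom. With the median of probes 11 passed and with the probe of the smallest ratio 8.

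Genes that did not pass changed sign in some settings. With the probe of the smallest ratio the ratio was -0.067 for etv5b, -0.0065 for fgf17, -0.016 for fgfrl1b and 0.028 for fgf23. For fgf23 it was 0.00065 with scaling and 0.017 with a dye term, and for fgf16 0.0015 with scaling, 0.0012 with quantile normalisation and 0.037 with a dye term. Leaving out each replicate, ratios ran from -0.113 to 0.0559 for fgfbp3, from -0.0056 to 0.091 for fgf19, from -0.056 to 0.042 for fgf23, from -0.136 to 0.033 for dusp6, from -0.016 to 0.0070 for spry4, from -0.046 to 0.011 for flrt1a, from -0.050 to 0.159 for fgf6b, from -0.016 to 0.081 for fgf3, from -0.0012 to 0.097 for fgf18b, from -0.050 to 0.096 for fgf8b, from -0.112 to 0.050 for fgf16, from -0.165 to 0.060 for fgf20a, from -0.091 to 0.013 for fgf20b and from -0.046 to 0.080 for fgfr1a. Why calls changed was not tested.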

Other observations

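Several FGF genes lie next to each other or next to genes that passed, by the order of protein-coding genes in the RefSeq table of the GRCz12tu assembly. Over all FGF genes 16 of 78 measured neighbours passed (20.5%), near the share over all genes. A neighbour of 2 FGF genes was counted at each. FGF genes next to each other were counted as neighbours too, with fgf4 among those that passed. The ligands fgf3, fgf4 and fgf19 follow each other, and their mean ratios were 0.04, 0.25 and 0.05, of which that of fgf4 passed by limma. The ligands fgf23 and fgf6b are neighbours at -0.0072 and 0.04, and so are fgf1b and the inhibitor spry4 at 0.10 and -0.0067. Beside fgfbp2b, fgfbp1b was not measured, and zmynd10 had -0.10, 0.10 and -0.06 and did not pass (adjusted p = 0.853). Beside fgf5, the transcriptional repressor gene prdm8b had 1.20, 1.39 and 1.31, a mean of 1.30 ± 0.10 (adjusted p = 5.87e-05), while cfap299 on its other side had 0.16 (adjusted p = 0.0890). Beside frs2b, which lay on the negative side, the ubiquitin ligase gene wwp2 lay on the positive side with 0.26, 0.36 and 0.40 (adjusted p = 0.00621).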
